A study of Mus musculus with 17 samples.

Results

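The expression of 10 genes of the platelet-derived growth factor (PDGF) and fibroblast growth factor (FGF) pathways was followed in cardiac fibroblasts (CFs) over the first days after myocardial infarction (MI). They were chosen by name as receptors or receptor-like genes (*Pdgfra*, *Pdgfrb*, *Pdgfrl*, *Fgfr1* and *Fgfr2*) and as ligands (*Pdgfa*, *Pdgfc*, *Pdgfd*, *Fgf2* and *Fgf7*), and they are 10 of the 31053 genes listed in the count table. CFs were sorted as GFP+/CD31-/CD45- cells from the hearts of C57BL/6 mice, 8 to 10 weeks old, that carry a Collagen1a1-GFP reporter. Every group was infarcted by permanent ligation of the left anterior descending coronary artery, and the groups differ in the day of collection: 3 libraries each at 1, 2, 4 and 6 days post-infarction (dpi), 4 at 3 dpi and 1 at 5 dpi. Uninfarcted hearts were not analysed here, so each comparison is between days. The reporter is driven by *Col1a1* regulatory sequence, and a cell that had not switched it on would not be in the gate. The study's methods call the bulk libraries biological replicates. Their section on single-cell preparation describes interstitial cells of 3 and 5 dpi as taken from individual mice. They do not say for any day how many hearts a bulk library holds. The sex of the mice is not stated in the sources used here. P-values measure the spread between libraries.

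PDGF ligands are secreted dimers that bring together 2 receptor chains, PDGFR-alpha and PDGFR-beta, whose tyrosine kinases then signal through RAS-ERK, PI3-kinase and phospholipase C. PDGFR-alpha is a customary surface marker of resident CFs, whereas PDGFR-beta is best known from pericytes and smooth muscle cells and is also made by fibroblasts. FGFs bind their receptors together with heparan sulfate, and FGF2 is a ligand that injured tissue is known to release.

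The libraries held 8021815 to 22029938 counts each (median 14123952). Levels are given as CPM, counts relative to library size, scaled to TMM-normalized library sizes, and a gene was called at a Benjamini-Hochberg adjusted p under 0.05 in edgeR's quasi-likelihood test over 14030 genes. Fibroblast markers were abundant, with a summed level of 16100 to 26900 CPM over 9 genes at 1 dpi and of 34600 to 40600 CPM at 6 dpi. The leukocyte gene *Ptprc*, which encodes CD45, reached at most 2.75 CPM, and *Pecam1*, which encodes CD31, at most 12.8 CPM. Other markers of these cell types were higher. The endothelial list held *Fabp4* at up to 130 CPM. Over 8 leukocyte genes the summed level was 8.31 to 17.8 CPM at 2 dpi, 43.9 to 188 CPM at 3 dpi and 17.1 to 29.6 CPM at 4 dpi, with *Lyz2* at up to 124 CPM and *C1qa* at up to 37.4 CPM at 3 dpi, and 2 of 7 tested genes were called higher for 3 against 2 dpi. Their part in the comparisons with 3 dpi was not tested. *Xist* counts exceeded those of Y-linked genes in 7 libraries, which were 1 dpi replicate 1 and all those of 4 and 6 dpi, and the reverse held in the other 10. At 1 dpi both were present in replicate 1, with 211 CPM of *Xist* and 10.6 CPM of Y-linked genes, and in replicate 2, with 19 and 60 CPM. At 4 and 6 dpi the Y-linked genes summed to at most 0.768 CPM. Day and this pattern cannot be told apart between 3 and 4 dpi, and only in part between 1 and 6 dpi. The 3 dpi libraries are named in another form than those of the other days, which share a running series of sample numbers. The sources used here do not say what this naming stands for, and its part in the comparisons with 3 dpi was not tested. The library of 3 dpi replicate 2 stood apart in several of the 10 genes, and values without it are given where a call rests on it.

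Across 1 to 6 dpi, 3 of the 10 genes were called, beside 15.0% of all genes tested. *Pdgfra* and *Fgf2* fell, and *Pdgfrl* rose. Between 6 and 1 dpi the same genes were called, with 2 lower and 1 higher, where 12.1% of all genes were called. *Pdgfra* was 2.30-fold lower at 6 dpi, *Fgf2* was 3.29-fold lower and *Pdgfrl* was 3.98-fold higher. Cardiomyocyte markers also rose between these days. Over 6 genes they summed to 17.1 to 35.5 CPM at 1 dpi and to 75.1 to 176 CPM at 6 dpi. Of these 6 genes 5 were called higher, and their part in the calls of the 10 genes was not tested. The libraries of the 2 days did not overlap for 6 of the 10 genes, 4 of them higher and 2 lower at 6 dpi, beside 32.5% of all genes. The median log2 fold change of the 10 genes was 0.75, against 0.03 for all genes tested. The genes went both ways, 6 being positive, of which 1 was called, and 4 negative, of which 2 were called.

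**Figure D1:**
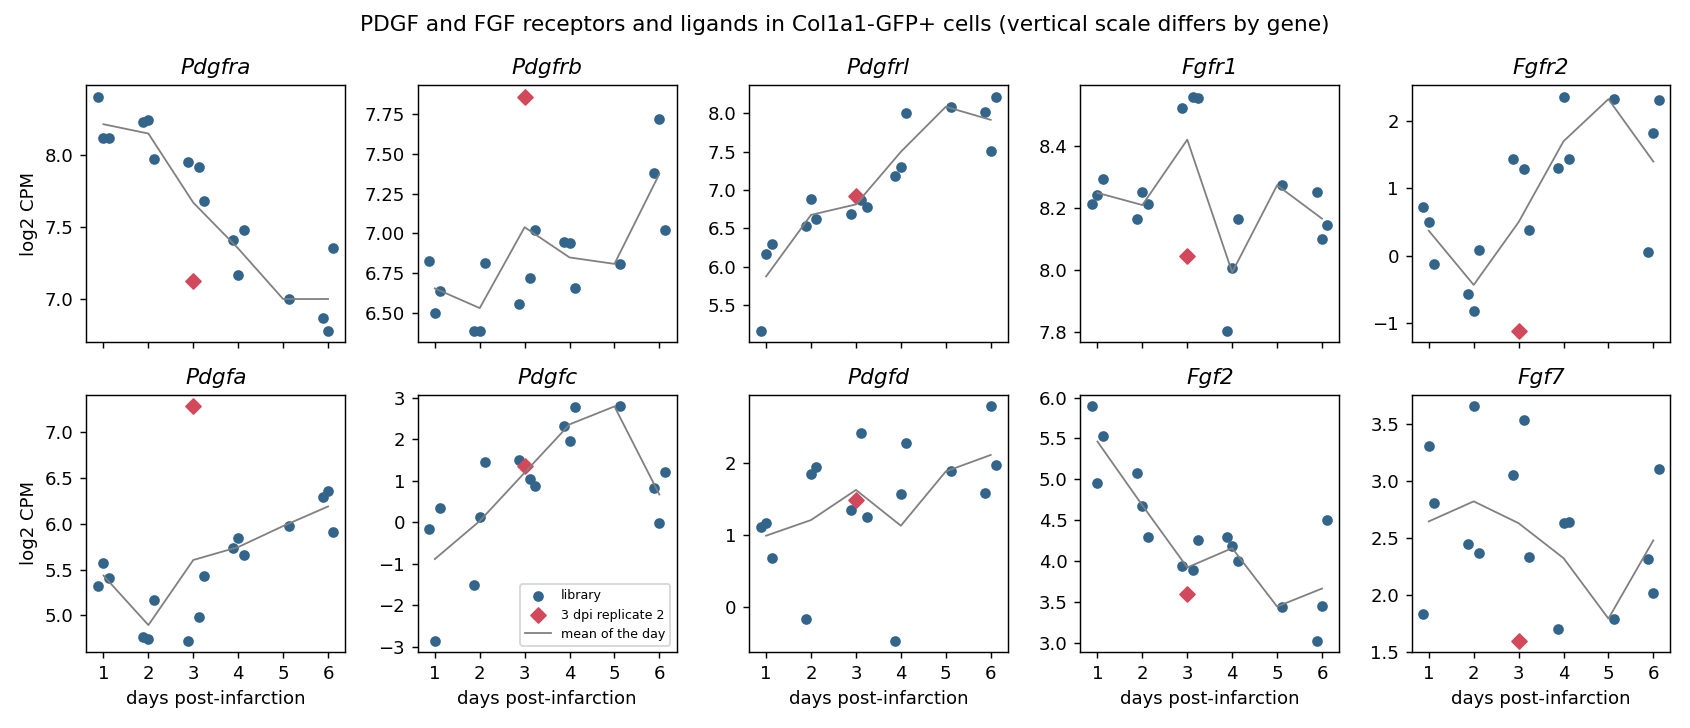
Level of each gene in log2 CPM (prior count 2, vertical axis, its scale differing by gene) against days post-infarction (horizontal axis). Each point is 1 library, the red diamond is 3 dpi replicate 2 and the line joins the means of the days. *Pdgfra* went from a mean of 8.22 at 1 dpi to 7.00 at 6 dpi, *Fgf2* from 5.46 to 3.66, and *Pdgfrl* from 5.87 to 7.91.

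*Pdgfra* encodes PDGFR-alpha, the receptor for PDGF-AA and PDGF-CC. It lies on chromosome 5 of GRCm38, from 75152292 to 75198215 on the plus strand (ENSMUSG00000029231). In order of replicate, it stood at 340, 278 and 278 CPM at 1 dpi, 299.9, 304 and 252 CPM at 2 dpi, 248, 139.5, 242 and 205 CPM at 3 dpi, 169.9, 143 and 178 CPM at 4 dpi, 128 CPM in the 5 dpi library and 116, 109.5 and 163 CPM at 6 dpi. The libraries of 1 and 2 dpi were all above those of 4 to 6 dpi. At 3 dpi, replicate 2 lay within the range of the late libraries and the others between the early and the late ones. At 1 dpi the mean was 299 ± 35.5 CPM (SD, n = 3) and by 6 dpi it had fallen to 130 ± 29.3 CPM (n = 3), a log2 fold change of -1.20 (SE 0.25, adjusted p = 0.0045 in edgeR's quasi-likelihood test). Across all days its adjusted p was 0.0075. No step between successive days passed the test by itself, the changes being -0.07, -0.45, -0.35 and -0.34 on the log2 scale for 2 against 1, 3 against 2, 4 against 3 and 6 against 4 dpi. Each step was downward, and none was larger than the test could tell from the spread between libraries. Within the 10 libraries where Y-linked counts exceeded *Xist*, which hold 1, 2, 3 and 5 dpi, the call across days was lost (adjusted p = 0.25). Within the 7 libraries with more *Xist*, 6 against 1 dpi gave -1.38 (adjusted p = 0.047). That fit rests on a single 1 dpi library, replicate 1, which is assumed to vary as the others do and was the highest of its day for *Pdgfra*, so it does not separate the day from this pattern. In bulk libraries, fewer cells that make a transcript and less of it per cell cannot be told apart. *Pdgfra* is itself 1 of the 9 fibroblast markers, which did not move together: for 6 against 1 dpi 3 were called higher, the collagens *Col1a1* (log2 fold change 2.39), *Col1a2* (1.41) and *Col3a1* (1.29), and 2 lower, *Pdgfra* and the collagen receptor *Ddr2* (-0.96). *Col1a1* also drives the reporter of the sort.

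The 250 bases before the RefSeq start of *Pdgfra* are shown because this is the called gene whose window lies wholly before its annotated start (GRCm38.p6, chr5:75152001-75152250, plus strand). Of 5 motifs searched on both strands, the GC box (GGGCGG), the CCAAT box (CCAAT), the TATA box (TATAAA), the AP-1 site (TGANTCA) and the E-box (CACGTG), none is in these letters, so no base is in capitals.

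Pdgfra: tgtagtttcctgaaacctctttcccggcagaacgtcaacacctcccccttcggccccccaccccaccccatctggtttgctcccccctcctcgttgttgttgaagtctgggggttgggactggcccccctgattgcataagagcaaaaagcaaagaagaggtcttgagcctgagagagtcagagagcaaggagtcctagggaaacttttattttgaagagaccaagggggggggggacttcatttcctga

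Such motifs were present in 32.7%, 33.8%, 12.4%, 6.7% and 6.0%, in that order, of the same windows of 32851 RefSeq promoters. Promoter windows were matched for 7 of the 10 genes. The GC box occurred in both windows of *Pdgfa* and in that of *Fgf2*, the CCAAT box in that of *Fgf7* and the TATA box in that of *Pdgfd*. The windows of *Pdgfa*, *Fgf2* and *Fgfr2* lie inside the annotated genes, downstream of their annotated starts. The window of *Pdgfra* had a GC content of 54.4%, near the median of 52.4% over all windows. These matches describe letters and were not tested against the levels.

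*Pdgfrb* encodes PDGFR-beta, the receptor for PDGF-BB and PDGF-DD, and lies on chromosome 18 (61045150 to 61085061, plus strand, ENSMUSG00000024620). Its levels were 113, 90.5 and 99.5 CPM at 1 dpi, 83.7, 83.8 and 112.5 CPM at 2 dpi, 93.9, 232, 105 and 129.6 CPM at 3 dpi, 123, 123 and 101 CPM at 4 dpi, 112 CPM at 5 dpi and 166, 211 and 129.9 CPM at 6 dpi. All 6 dpi libraries lay above all those of 1 dpi, and the highest library of all was 3 dpi replicate 2. The difference between 6 and 1 dpi, 0.74 on the log2 scale (SE 0.30), did not pass the test (adjusted p = 0.11, edgeR). Without 3 dpi replicate 2 the difference was again 0.74 and was called (adjusted p = 0.023), as was the change across days (adjusted p = 0.046, against 0.21 with it). Without any of the 3 dpi libraries the difference was 0.72 (adjusted p = 0.038). Of 8 pericyte and smooth muscle markers, 7 had a positive log2 fold change for 6 against 1 dpi and 1 a negative one. Of the 8, 4 were called higher at 6 dpi and none lower, beside 12.1% of all genes. The called genes were *Rgs5* (log2 fold change 1.71), *Cspg4* (2.47), *Notch3* (1.51) and *Higd1b* (2.33). The summed level of all 8 was 44.0 to 87.0 CPM at 1 dpi and 153 to 204 CPM at 6 dpi. It was 113 CPM in 3 dpi replicate 2, the lowest of that day. No marker of this list was at 0 in any library, and their part in the level of *Pdgfrb* was not tested.

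*Pdgfra* and *Pdgfrb* were also set against each other within each library, where library size cancels. The log2 ratio of *Pdgfrb* to *Pdgfra* counts was -1.56 ± 0.07 (SD, n = 3) at 1 dpi, -1.62 ± 0.40 (n = 3) at 2 dpi, -0.63 ± 0.96 (n = 4) at 3 dpi, -0.50 ± 0.30 (n = 3) at 4 dpi, -0.19 in the 5 dpi library and 0.38 ± 0.65 (n = 3) at 6 dpi. At 1 dpi every library held between 0.325 and 0.358 *Pdgfrb* counts for each *Pdgfra* count, and at 6 dpi between 0.795 and 1.92. The range of 6 dpi lay wholly above that of 1 dpi. At 3 dpi the ratio reached 1.66 in replicate 2, and the other libraries of that day were below it. How the counts of different genes relate to their numbers of transcripts was not examined. The change of the ratio is therefore described here and not which receptor is the more abundant.

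**Figure D2:**
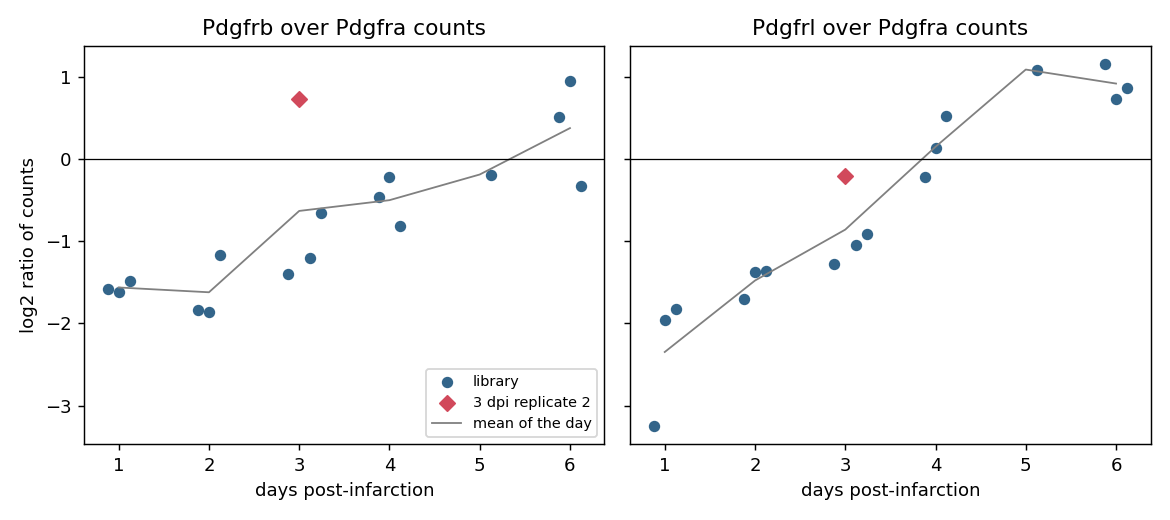
Log2 ratio of counts within each library (vertical axis) against days post-infarction (horizontal axis), for *Pdgfrb* over *Pdgfra* (left) and *Pdgfrl* over *Pdgfra* (right). Points are libraries, the red diamond is 3 dpi replicate 2 and the line joins the means of the days, which went from -1.56 to 0.38 and from -2.35 to 0.92 between 1 and 6 dpi.

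*Pdgfrl* encodes a secreted protein related to the extracellular part of the PDGF receptors and has no kinase. It lies on chromosome 8 (40926212 to 40990785, plus strand, ENSMUSG00000031595). Its levels were 35.7, 71.5 and 78.1 CPM at 1 dpi, 92.4, 117 and 97.9 CPM at 2 dpi, 103, 121, 117 and 109 CPM at 3 dpi, 145, 158 and 257 CPM at 4 dpi, 271 CPM at 5 dpi and 259, 182 and 297 CPM at 6 dpi. The libraries of 1 dpi were below those of every later day, and those of 4 to 6 dpi were above all earlier ones. The rise from 1 to 6 dpi was 1.99 on the log2 scale (SE 0.30, adjusted p = 0.00032, edgeR), and the adjusted p across days was 0.00066. The largest steps were 0.73 for 2 against 1 dpi (SE 0.29) and 0.73 for 4 against 3 dpi (SE 0.27), neither of which passed the test (adjusted p = 0.55 and 0.15). The call across days held within the libraries with more Y-linked counts (adjusted p = 0.017), whereas 6 against 1 dpi within those with more *Xist* gave 2.79 (adjusted p = 0.023) against 1 dpi replicate 1 alone, which at 35.7 CPM was the lowest of its day. Relative to *Pdgfra*, *Pdgfrl* counts had a log2 ratio of -2.35 ± 0.78 at 1 dpi and of 0.92 ± 0.22 at 6 dpi (SD, n = 3 each).

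*Fgfr1* encodes the FGF receptor best known from mesenchymal cells and lies on chromosome 8 (25513654 to 25575718, plus strand, ENSMUSG00000031565). Its levels stayed between 223 and 377 CPM in all 17 libraries, with 296 to 313 CPM at 1 dpi and 274 to 305 CPM at 6 dpi. These ranges overlapped, and 6 against 1 dpi differed by -0.08 on the log2 scale (SE 0.22, adjusted p = 0.84, edgeR). At 3 dpi the libraries held 368, 264, 377 and 376 CPM, and the low value is that of replicate 2. The mean was highest at 3 dpi, 346 ± 54.9 CPM (SD, n = 4), and lowest at 4 dpi, 256 ± 31.9 CPM (SD, n = 3). That step of -0.44 (SE 0.21) did not pass the test (adjusted p = 0.27), and neither did the test across days (adjusted p = 0.62).

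*Fgfr2*, on chromosome 7 (130162451 to 133123350, minus strand, ENSMUSG00000030849), encodes a receptor whose isoforms differ between epithelial and mesenchymal cells. It had 4 to 87 counts per library, or 0.322 to 5.02 CPM. The difference between 6 and 1 dpi, 1.36 on the log2 scale (SE 0.74), did not pass the test (adjusted p = 0.24), and the libraries of these days overlapped. In edgeR's test the adjusted p across days was 0.11, and with DESeq2 it was 0.021. Its annotation shares 314 exon bases on the same strand with *Ctbp2*, which had 9181 counts over all libraries against 479 for *Fgfr2*, so the few reads of *Fgfr2* are uncertain.

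*Fgf2* encodes basic FGF, a ligand that lacks a classical signal peptide, and lies on chromosome 3 (37348346 to 37410108, plus strand, ENSMUSG00000037225). Its levels were 59.2, 30.95 and 46.2 CPM at 1 dpi, 33.6, 25.3 and 19.45 CPM at 2 dpi, 15.2, 11.9, 14.7 and 18.9 CPM at 3 dpi, 19.4, 18.1 and 15.8 CPM at 4 dpi, 10.7 CPM at 5 dpi and 8.00, 10.8 and 22.6 CPM at 6 dpi. Most of the decline lay between 1 and 3 dpi, and all libraries of 3 dpi were below all those of 2 dpi. From 1 to 6 dpi it fell by 1.72 on the log2 scale (SE 0.35, adjusted p = 0.0034, edgeR), with an adjusted p of 0.0037 across days. The steps of -0.80 for 2 against 1 dpi (SE 0.34, adjusted p = 0.59) and -0.78 for 3 against 2 dpi (SE 0.31, adjusted p = 0.18) did not pass the test. The call across days held within the libraries with more Y-linked counts (adjusted p = 0.041), whereas 6 against 1 dpi within those with more *Xist* gave -2.10 (adjusted p = 0.041) against 1 dpi replicate 1 alone, which at 59.2 CPM was the highest of its day. *Fgf2* shares 640 of its 6782 exon bases with *Nudt6* on the opposite strand. The strand setting of the counting is not given in the sources used here, so reads from the shared bases cannot be told apart. *Nudt6* had 1280 counts in all against 5711 for *Fgf2*, and its difference between 6 and 1 dpi was 0.92 on the log2 scale, opposite in sign (adjusted p = 0.15).

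*Fgf7*, on chromosome 2 (126034658 to 126091185, plus strand, ENSMUSG00000027208), encodes keratinocyte growth factor, a mesenchymal ligand for epithelial cells. It ranged from 2.90 to 12.4 CPM, with 3.42 to 9.73 CPM at 1 dpi and 3.92 to 8.45 CPM at 6 dpi. These ranges overlapped, and 6 against 1 dpi gave -0.23 (SE 0.52, adjusted p = 0.81). The adjusted p across days was 0.78.

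*Pdgfa* encodes the A chain of PDGF, whose homodimer acts through PDGFR-alpha, and lies on chromosome 5 (138976014 to 138997370, minus strand, ENSMUSG00000025856). Its levels were 39.7, 47.6 and 42.4 CPM at 1 dpi, 27.0, 26.7 and 35.95 CPM at 2 dpi, 26.3, 155, 31.6 and 42.9 CPM at 3 dpi, 53.0, 57.4 and 50.4 CPM at 4 dpi, 62.8 CPM at 5 dpi and 78.0, 82.1 and 60.15 CPM at 6 dpi. Apart from 3 dpi replicate 2, which at 155 CPM was the highest of all, the libraries of 4 to 6 dpi lay above all those of 1 to 3 dpi. With that library, 6 against 1 dpi gave 0.76 on the log2 scale (SE 0.45) and did not pass the test (adjusted p = 0.28, edgeR). Without it the difference was again 0.76 and was called (adjusted p = 0.018), and the adjusted p across days went from 0.27 to 0.0012. Without that single library, 5 of the 10 genes were thus called, both across days and for 6 against 1 dpi, with *Pdgfa* and *Pdgfrb* added. The share of all genes called rose as well in that fit, to 24.8% across days and 18.1% for 6 against 1 dpi. Epicardial and mesothelial markers, 5 genes of which none was called, summed to 146 CPM in 3 dpi replicate 2, the highest of that day, and to 546 CPM in 6 dpi replicate 2, against 71.5 and 67.5 CPM in the other 6 dpi libraries. They reached 186 CPM at 1 dpi and 185 CPM at 5 dpi. Replicate 2 of 3 dpi and of 6 dpi also had the highest *Pdgfa* and *Pdgfrb* of their days. The other replicated days differed. At 2 dpi replicate 2 had the highest sum of these markers, 120 CPM, and the lowest *Pdgfa*. At 1 dpi replicate 2 had the highest sum, the highest *Pdgfa* and the lowest *Pdgfrb*. At 4 dpi replicate 3 had the highest sum, 71.3 CPM, and the lowest *Pdgfa* and *Pdgfrb*. The part of such cells was not tested. *Pdgfa* shares 813 of 3119 exon bases with the antisense gene *6330403L08Rik*, which had 609 counts in all against 12864.

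**Figure D3:**
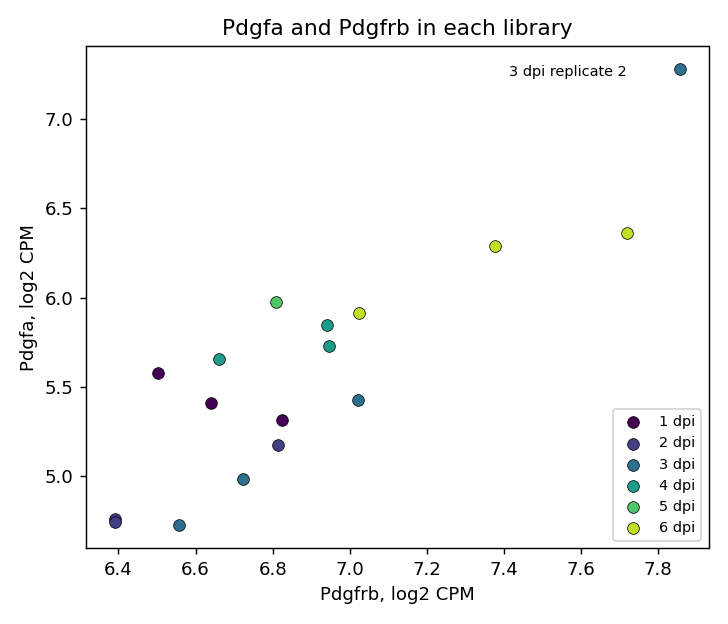
Level of *Pdgfa* (vertical axis, log2 CPM) against that of *Pdgfrb* (horizontal axis, log2 CPM), 1 point per library, coloured by day. The points share library and day. 3 dpi replicate 2 lies at the upper right with 155 CPM of *Pdgfa* and 232 CPM of *Pdgfrb*, and 2 of the 6 dpi libraries come next on both axes.

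*Pdgfc* and *Pdgfd* encode ligands that are secreted in a latent form and cleaved before they bind. *Pdgfc*, on chromosome 3 (81036416 to 81214040, plus strand, ENSMUSG00000028019), had 0 to 23 counts at 1 dpi and 63 to 75 counts at 4 dpi. Its level was 0.628 ± 0.573 CPM (SD, n = 3) at 1 dpi, 5.11 ± 1.5 CPM (SD, n = 3) at 4 dpi, 6.76 CPM at 5 dpi and 1.54 ± 0.653 CPM (SD, n = 3) at 6 dpi. All libraries of 4 dpi were above those of the other days except the 5 dpi library, which was the highest. In edgeR's test the adjusted p across days was 0.099, and with DESeq2 it was 0.012. None of its differences passed edgeR's test, with 1.22 for 4 against 3 dpi (SE 0.79, adjusted p = 0.44), -1.72 for 6 against 4 dpi (SE 0.87, adjusted p = 0.28) and 1.33 for 6 against 1 dpi (SE 0.92, adjusted p = 0.37). *Pdgfd*, on chromosome 9 (6168584 to 6378850, plus strand, ENSMUSG00000032006), ranged from 0.584 to 6.73 CPM. Its 6 dpi libraries, at 2.84 to 6.73 CPM, lay above those of 1 dpi, at 1.47 to 2.10 CPM, but the difference of 1.25 (SE 0.68) did not pass the test (adjusted p = 0.24), and neither did the test across days (adjusted p = 0.72).

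The steps between successive days asked when a change took place. None of the 10 genes was called for 2 against 1 dpi, where 0.178% of all genes were called, for 3 against 2 dpi (2.94%), for 4 against 3 dpi (2.71%) or for 6 against 4 dpi (0.513%). At an unadjusted p under 0.05 in edgeR's test, *Pdgfrl* (0.0219) and *Fgf2* (0.0288) passed for 2 against 1 dpi, beside 7.58% of all genes. For 3 against 2 dpi these were *Pdgfa* (0.0188), *Fgf2* (0.0219) and *Pdgfrb* (0.0493), beside 18.3% of all genes. For 4 against 3 dpi they were *Pdgfrl* (0.0138) and *Fgfr1* (0.0466), beside 18.2%, and for 6 against 4 dpi none, beside 19.9%. DESeq2 also called none of the 10 genes in these 4 steps. When every gene with a count was kept, *Pdgfa* was called for 3 against 2 dpi (1.12, adjusted p = 0.0035), where 3 dpi replicate 2 held 155 CPM and the other libraries of 3 dpi 26.3 to 42.9 CPM, a range that overlaps that of 2 dpi. On simulated counts for 6 against 1 dpi, 15 of 100 genes changed by a log2 fold of 1 were called and 79 of 100 changed by 2. In that setting most changes of 1 on the log2 scale were missed. These were the only changed genes among 13674, whereas 12.1% of all genes were called for 6 against 1 dpi in the data. The adjustment is stricter where fewer genes change, so these shares do not carry over to the data. The steps between successive days were not simulated.

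**Figure D4:**
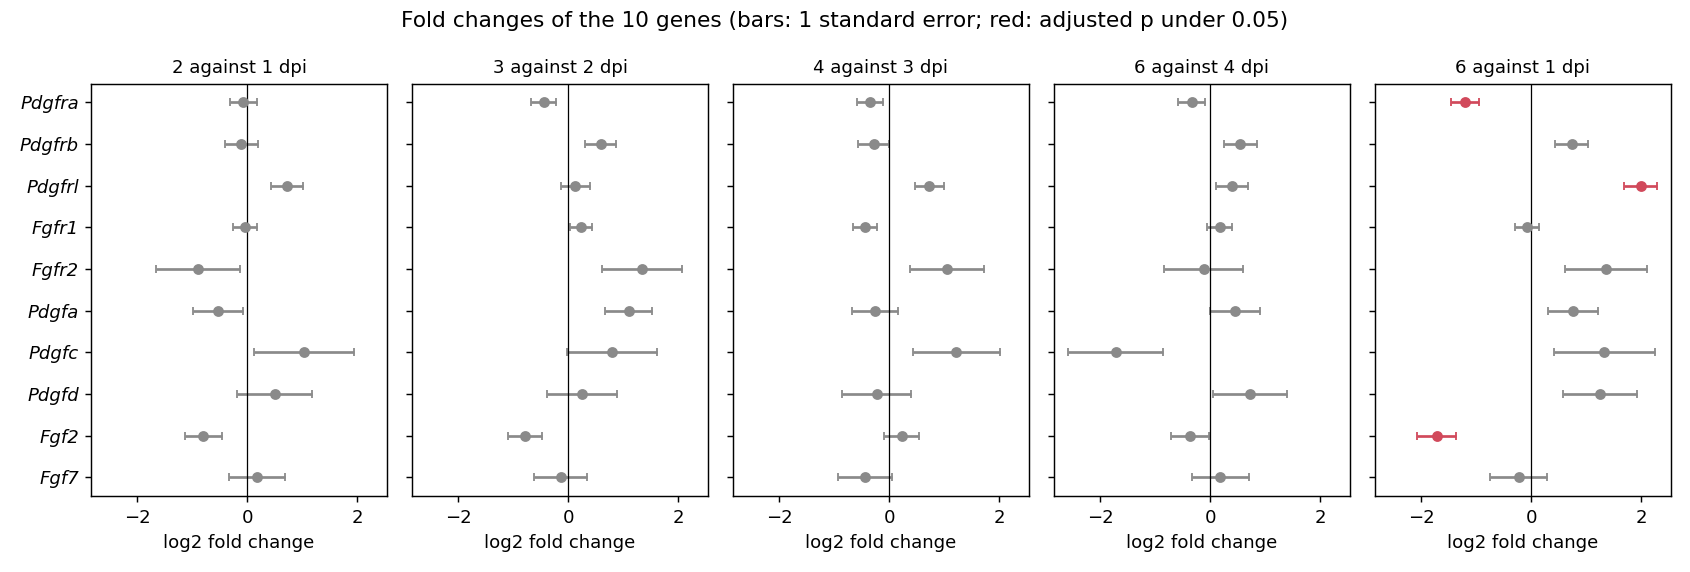
Log2 fold change (horizontal axis) of each of the 10 genes (vertical axis) in the steps between successive days and for 6 against 1 dpi. Bars are 1 standard error, red marks an adjusted p under 0.05 in edgeR's test, and the 3 red points, all in the panel of 6 against 1 dpi, are *Pdgfrl* at 1.99, *Pdgfra* at -1.20 and *Fgf2* at -1.72.

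Other genes of the pathways were followed in 8 lists, of which 88 genes could be tested. Of these, 14 were called across days (15.9%), beside 15.0% of all genes, and 15 for 6 against 1 dpi (17%), 6 higher and 9 lower, beside 12.1%. For 4 against 3 dpi 4 were called (4.5%), 1 higher and 3 lower, beside 2.71% of all genes, and none in the other steps. Among receptors and binding proteins, 3 of 7 could be tested and *Fgfrl1* alone was called. This gene encodes an FGF receptor without a kinase domain, and it rose. It held 8.24 ± 0.813 CPM (SD, n = 3) at 1 dpi, 9.49 ± 1.85 CPM (n = 4) at 3 dpi, 20.7 ± 4.02 CPM (n = 3) at 4 dpi, 32.2 CPM at 5 dpi and 36.3 ± 9.37 CPM (n = 3) at 6 dpi. The rise was 1.12 for 4 against 3 dpi (SE 0.28, adjusted p = 0.039, edgeR, a call lost in 8 of 22 alternatives) and 2.14 for 6 against 1 dpi (SE 0.31, adjusted p = 0.00024). Of the other ligands, 7 of 17 could be tested and none was called. *Pdgfb*, the B chain, reached at most 3.02 CPM, and *Fgf18* ranged from 7.08 to 32.9 CPM.

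Heparan sulfate proteoglycans and their modifying enzymes, which hold FGFs at the cell surface and in the matrix, had 6 of 19 genes called across days, beside 15.0% of all genes, and 5 for 6 against 1 dpi, all 5 higher, beside 12.1%. The median log2 fold change of the list was 0.56, against 0.03 for all genes. The syndecan *Sdc3* held 82.9 ± 6.14 CPM at 1 dpi and 272 ± 97.0 CPM at 6 dpi (SD, n = 3 each), a rise of 1.71 on the log2 scale (adjusted p = 0.0034, edgeR). The glypicans *Gpc1* (1.49), *Gpc6* (1.37) and *Gpc4* (1.14) and *Hspg2* (1.34), which encodes perlecan, made up the rest. The call was lost in 6 of 23 alternatives for *Hspg2*, in 5 for *Gpc4*, in 2 for *Gpc1* and in 0 for *Gpc6* and *Sdc3*. *Hs6st2*, a sulfotransferase, changed across days (adjusted p = 0.0043) with its highest mean at 4 dpi, 14.4 ± 2.56 CPM (n = 3). *Sdc1* and *Sulf1* were also called across days, with log2 differences of -0.21 and -0.02 between 6 and 1 dpi.

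Feedback inhibitors of receptor tyrosine kinases had 4 of 13 genes called across days, beside 15.0% of all genes, and 4 for 6 against 1 dpi, all 4 lower, beside 12.1%. The list median was -0.66, against 0.03 for all genes. *Spry4* (-1.10), *Spred1* (-0.99), *Cblb* (-1.08) and *Dusp5* (-1.32) were lower at 6 dpi, the call being lost in 9 of 23 alternatives for *Cblb* and in 14 of 23 for *Dusp5*. Sprouty and Spred proteins restrain RAS-ERK signalling, Cbl-b is a ubiquitin ligase of receptors and DUSP5 is an ERK phosphatase. *Spry1* followed another course, with means of 154 ± 17.5 CPM at 1 dpi (SD, n = 3), 362 ± 105 CPM at 3 dpi (n = 4) and 150 ± 44.8 CPM at 4 dpi (n = 3), and its fall for 4 against 3 dpi was called (-1.27, SE 0.28, adjusted p = 0.016, edgeR). *Lrig1* (-0.80, adjusted p = 0.045) fell in the same step, a call lost in 15 of 22 alternatives. Of 29 relay genes 2 were called across days, *Ptpn11* and *Hras*, beside 15.0% of all genes. For 4 against 3 dpi 1 was called, *Ptpn11*, which fell (-0.82, adjusted p = 0.040 in edgeR's test, lost in 14 of 22), beside 2.71% of all genes. For 6 against 1 dpi 3 of the 29 were called, all lower, beside 12.1% of all genes. These were *Crk* (-1.09), *Nras* (-1.06) and *Map2k1* (-1.07). Of 10 targets that ERK is known to induce, 1 was called across days, beside 15.0% of all genes. For 6 against 1 dpi 2 of them were called, beside 12.1% of all genes. These were *Myc* (-1.41, adjusted p = 0.0011) and *Phlda1* (-1.05, adjusted p = 0.019, edgeR), both lower at 6 dpi. None of the 2 intracellular FGF genes and none of the 5 PDGF processing genes and co-receptors that could be tested was called. Within the libraries with more *Xist* than Y-linked counts, which hold a single 1 dpi library, 1 of the 15 calls for 6 against 1 dpi held, *Fgfrl1*, and the other 14 had adjusted p-values from 0.056 to 0.27. The direction of these 14 was as in all libraries, and the fold was larger in 10 and smaller in 4 (*Myc*, *Phlda1*, *Spred1* and *Spry4*). Cardiomyocyte transcripts also moved with these days, their summed level over 6 genes being 17.1 to 35.5 CPM at 1 dpi, 7.89 to 11.4 CPM at 3 dpi, 39.9 to 67.9 CPM at 4 dpi and 75.1 to 176 CPM at 6 dpi. Of these genes 3 were called higher for 4 against 3 dpi and 5 for 6 against 1 dpi, and their part in these differences was not tested. The study's methods describe a strainer step, before the sort, that is meant to remove cardiomyocytes.

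**Figure D5:**
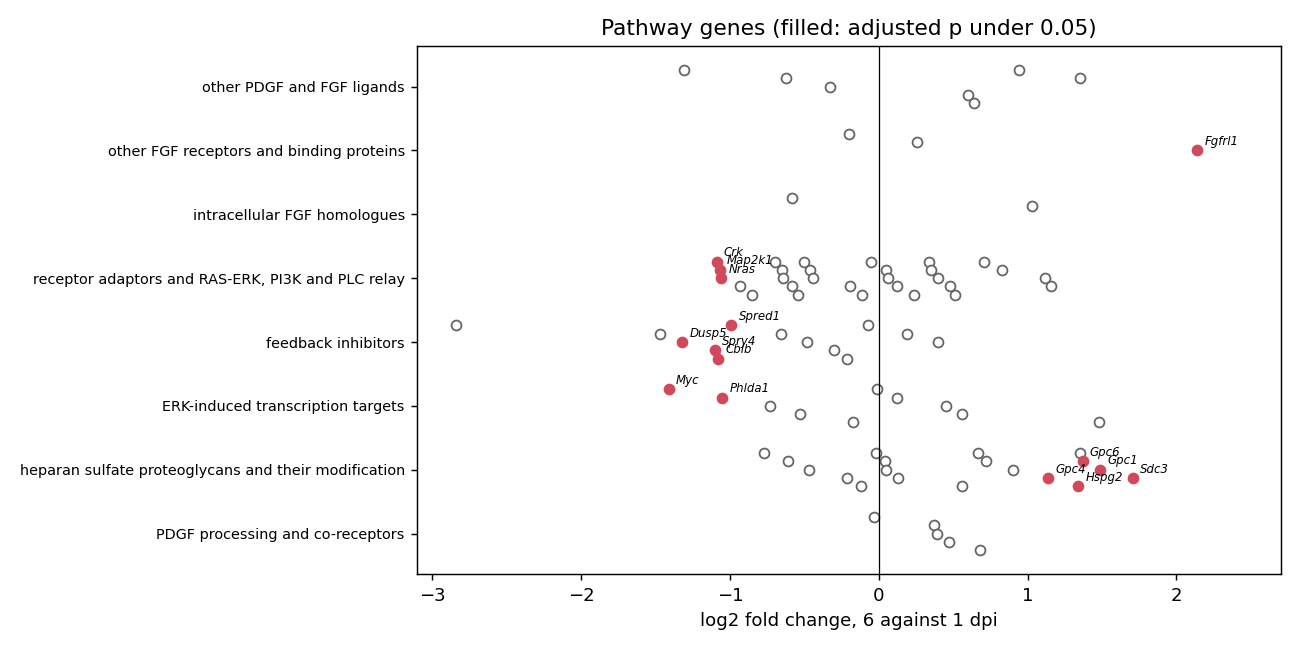
Log2 fold change for 6 against 1 dpi (horizontal axis) of every tested gene of the 8 pathway lists (vertical axis). Filled red points are the 15 genes with an adjusted p under 0.05 in edgeR's test, from -1.41 (*Myc*) to 2.14 (*Fgfrl1*), and open points are the others of the 88.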

How the data were processed

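Sorted CFs were profiled by bulk MARS-seq, a method that reads poly-A RNA at its 3′ end, in 17 libraries. The authors used bcl2fastq (1.2.4) to demultiplex, STAR to align to mm10 and featureCounts to assign reads to Ensembl genes, and the deposited values are raw counts, 1 column per library. No collapsing of PCR copies is named in the sources used here, so counting error alone would understate the error. A gene was kept if 3 or more libraries had 10 or more counts of it (14030 genes). Day was fitted as a factor of 6 levels to all 17 libraries with edgeR (4.0.16) in R (4.3.3), after TMM normalization. The test was the quasi-likelihood F-test, the Benjamini-Hochberg adjustment ran over all genes tested, and a standard error was taken as the absolute log2 fold change over the root of the F statistic. The single 5 dpi library enters the test across days and was not tested alone. Levels on the log2 scale use a prior count of 2. Positions come from GENCODE on GRCm38 and promoter windows from RefSeq on GRCm38.p6. The 10 genes and the lists were chosen with earlier results of these data known. All 10 genes were tested in every comparison. From each pathway list the text names up to 4 genes with the largest change between 6 and 1 dpi among those called across days, and genes called between successive days, and further genes where a small count is spelled out. Alternatives were DESeq2 (1.42.0), DESeq2 size factors, other count filters, a replicate block, fits to the days compared, fits without the 3 dpi libraries and without each library in turn. Fits split by *Xist* and Y-linked counts were added after seeing the data. Scripts were tested on simulated data.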

Additional observations from a re-analysis of the deposited data

Results flagged for a closer look

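The level of *Fgfr1* in 3 dpi replicate 2 was 8.05 log2 CPM, far below the other 3 libraries of that day, whose lowest stood at 8.52. The 4 libraries of 3 dpi were the only group large enough for this check, which was made for the highest and the lowest library of each of the 10 genes, and chance alone flags about 1 group in 20. *Pdgfa* and *Pdgfrb* in the same library were high without meeting this rule, with 155 and 232 CPM.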

How the results depend on the processing

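The fit of 6 against 1 dpi to the libraries with more *Xist* rests on a single 1 dpi library and is left out of the ranges and counts of calls of single genes. In the 23 other alternatives *Pdgfra* ranged from -1.40 to -1.09, *Fgf2* from -2.27 to -1.44 and *Pdgfrl* from 1.71 to 2.19 between 6 and 1 dpi, and each was called. *Pdgfrl* and *Fgf2* were also called across days in 22 of 22. *Pdgfra* lost its call across days in 1 of 22. Calls of pathway genes were lost more often. For 6 against 1 dpi *Dusp5* lost its call in 14 of 23 alternatives, *Cblb* in 9, *Hspg2* in 6, *Crk* and *Gpc4* in 5 each and *Nras* in 4, whereas *Fgfrl1*, *Gpc6*, *Myc* and *Sdc3* lost it in 0 and the other 5 in 1 to 3. For 4 against 3 dpi *Lrig1* lost its call in 15 of 22, *Ptpn11* in 14, *Fgfrl1* in 8 and *Spry1* in 4. The number of the 10 genes called across days was 5 with DESeq2 (with *Pdgfc* and *Fgfr2*) and 5 when all genes with any count were kept (with *Pdgfa* and *Pdgfc*). For 3 against 2 dpi the number of the 10 genes called was 1 with every gene kept, where 980 of all genes were called against 412. For 6 against 1 dpi it was 5 without the 3 dpi libraries, where 2118 of all genes were called against 1700. *Pdgfa* made it 4 for 6 against 1 dpi with the libraries of those days alone (adjusted p = 0.046), where 1536 of all genes were called, and 4 across days without the 3 dpi libraries (adjusted p = 0.0058), where 1557 were called against 2099. With 1 library left out it was 3 to 5 across days and for 6 against 1 dpi, the 5 being without 3 dpi replicate 2, and 0 in each step. Counts over all genes moved more. Across days they were 3757 with DESeq2, 3729 with every gene kept, 459 in the libraries with more Y-linked counts and 1307 (without 6 dpi replicate 1) to 3466 (without 3 dpi replicate 2) with 1 library left out, against 2099. For 2 against 1 dpi they were 104, 153, 10 with at least 10 counts in every library, 63 with the libraries of those days alone, 8 in the libraries with more Y-linked counts and 13 (without 1 dpi replicate 1) to 32 with 1 left out, against 25. For 3 against 2 dpi they were 1042 with DESeq2, 980 with every gene kept, 252 with those days alone and 46 (without 2 dpi replicate 2) to 734 (without 3 dpi replicate 2) with 1 left out, against 412. For 4 against 3 dpi they were 879, 866, 125 and 126 (without 4 dpi replicate 2) to 722 (without 3 dpi replicate 2) in the same order, against 380. For 6 against 4 dpi they were 807, 882, 140 with at least 10 counts in every library, 14 with those days alone, 292 without the 3 dpi libraries, 11 in the libraries with more *Xist* and 3 (without 4 dpi replicate 2) to 1402 (without 6 dpi replicate 3) with 1 left out, against 72. For 6 against 1 dpi they were 435 in the libraries with more *Xist* and 763 (without 6 dpi replicate 2) to 2577 (without 6 dpi replicate 3) with 1 left out, against 1700. The cause was not tested. Replicate numbers did not pair the samples: the deviations of libraries with the same number correlated at 0.011 on average (30 pairs), those of others at -0.005 (72 pairs). A replicate block gave 174, 243 and 28 genes for 3 against 2, 4 against 3 and 6 against 4 dpi, and changed no call of the 10 genes. *Pdgfc*, *Pdgfd*, *Fgf7* and *Fgfr2* had no more than 236 counts in a library, and the effect of depth on their tests was not tested.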

Other observations

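Over the 17 libraries and 8918 genes with a mean of at least 100 counts, the genes whose log2 CPM ran most like that of the called genes were found by Pearson's r. These values are a description, since all genes share library, day and depth. *Pdgfrl* ran most like *Mmp23* (0.928), *Thbs4* (0.915) and *Sparc* (0.909), of which thrombospondin 4 and SPARC are matrix proteins. Among the genes that ran most like *Fgf2* were *Ddr2* (0.913), a collagen receptor, and *Rock2* (0.891), and *Pdgfra* ran most like *Akap8* (0.911), *Eif5* (0.903) and *Diaph2* (0.899). Among the 10 genes, r was 0.82 between *Pdgfra* and *Fgf2*, 0.88 between *Pdgfrb* and *Pdgfa*, and -0.79 both between *Pdgfra* and *Pdgfrl* and between *Pdgfra* and *Pdgfa*.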
